A study of Rattus norvegicus with 2 samples.

Results

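The 272 most abundant circular RNAs (circRNAs) of rat spinal cord are described here, out of 11599 that were listed in a bone cancer pain experiment. They were chosen by their reads: the back-splice junction counts of both libraries had to sum to at least 100, with each library above 0. These 272 made up 2.35% of the listed circRNAs. They held 44431 of the sham reads, or 39.3% (exact Clopper-Pearson interval 39.0 to 39.6), and 31133 of the BCP reads, or 39.5% (39.1 to 39.8). The choice used these counts, so the levels and shares are a description and were not tested.

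CircRNAs form when the spliceosome joins a downstream splice donor to an upstream acceptor, so that 1 or more exons close into a ring. The ring has no free ends, which protects it from exonucleases, and the junction read is what tells it from the linear transcript of the same gene. CircRNAs are known to be plentiful in nervous tissue, where many come from genes for synaptic and regulatory proteins, and a host gene can give several rings by the use of different splice sites. A few act as sponges or scaffolds, while the function of most is unknown.

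Both groups were rats with surgery to the tibia. The BCP (bone cancer pain) group received live Walker256 cells, a rat mammary carcinoma line grown as ascites in SD rats, in the marrow cavity, and the sham group received the same line after boiling. Each group had 3 animals, killed 21 days after surgery, and ribosomal RNA was depleted before linear RNA was removed by RNase R (16 units, 15 min). The labels say nothing of the strain, age or sex of the operated animals, nor of whether their RNA was pooled. Spinal cord is given as the tissue, although the source field holds the name of the injected line. Genes of neurons were among the hosts of the abundant circRNAs, such as Elavl3 (154 sham and 99 BCP reads) and Map2 (93 and 68), and the linear transcripts of marker genes were not measured.

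There was 1 library per group, with 113033 back-splice reads in sham and 78836 in BCP, a depth ratio of 1.43. No difference between the libraries has a replicate check, no p-value is given, and each comparison is of these libraries and not of the conditions. Levels are CPM, a count scaled to the total of circRNA reads in its library. A ratio is BCP CPM over sham CPM, with a 95% conditional exact binomial interval. Intervals cover counting error only, and PCR copies of a molecule cannot be told from separate molecules without identifiers. In bulk tissue, fewer cells of a type and less RNA per cell cannot be told apart. A read is counted at 1 junction, so circRNAs of different length are set side by side without dividing by length. Positions are those of the deposited table, in build rn6.

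Counts among the abundant circRNAs ran from 19 to 6836 in sham, with a median of 93.5, and from 26 to 4806 in BCP, with a median of 68. After scaling to depth, the medians were 827 CPM in sham and 863 CPM in BCP. Most of them lay close to the lower limit: 178 had fewer than 200 summed reads, 70 had 200 to fewer than 400, and 24 had 400 or more. Only 7 reached 1000 reads. The 5 just inside the limit, each with 100 reads, came from Mpzl1 (56 in sham and 44 in BCP), Strbp (74 and 26), Kdm5a (57 and 43), Trappc6b (42 and 58) and Me1 (59 and 41). The 5 just outside it came from Galnt2 (50 and 49), Atrnl1 (63 and 36), Polk (56 and 43), Rims2 (63 and 36) and Specc1 (60 and 38). A further 2 circRNAs had enough summed reads but were listed at 0 in BCP and were left out: one of LOC100362999 with 287 sham reads (chr6:59301040-59301308), and one with no host name with 124 (chr1:119464809-119545970).

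The leading circRNA of the tissue came from Gigyf2, which encodes an adaptor of a translational repressor complex (chr9:94463647-94481167). It had 6836 sham and 4806 BCP reads, and its ratio was 1.01 (0.971 to 1.05). The runner-up came from Ssbp2, a partner of LIM-domain transcription complexes (chr2:20507150-20531444), with 2842 and 1708 reads and a ratio of 0.862. These 2 alone took 8.56% of sham reads and 8.26% of BCP reads. Next by summed reads came a circRNA on chromosome 3 (chr3:81127393-81143240, 802 and 555 reads). It was left without a single host name after filtering of the gene field, and such circRNAs are called unnamed here. It overlapped circRNAs of the chromatin reader gene Phf21a and shared a splice site with 1 of them. Zfp609, a zinc finger gene whose ring is known from muscle (chr8:71336875-71337745), had 765 and 509 reads.

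Transcription regulators filled most of the next places. Elf2, an ETS-family factor (chr2:140366057-140387503), had 756 sham and 472 BCP reads. Crebrf, a regulator of CREB3-type factors (chr10:16724062-16730140), had 796 and 414 and a ratio of 0.746 (0.661 to 0.841). Cdyl, a chromodomain corepressor (chr17:29730437-29731094), had 639 and 560 and a ratio of 1.26 (1.12 to 1.41). Crebrf and Cdyl thus lay on opposite sides of an equal level, each with an interval that left out 1. Gtf2i, the general transcription factor TFII-I (chr12:25431710-25435591), had 543 and 435 reads. Tmeff1, a transmembrane protein with follistatin-like and EGF-like domains (chr5:64346707-64358597), had 517 and 393. The list of 10 closed with AABR07060133.1, an uncharacterised locus (chr4:58469325-58485447), at 472 and 420.

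**Figure D1:**
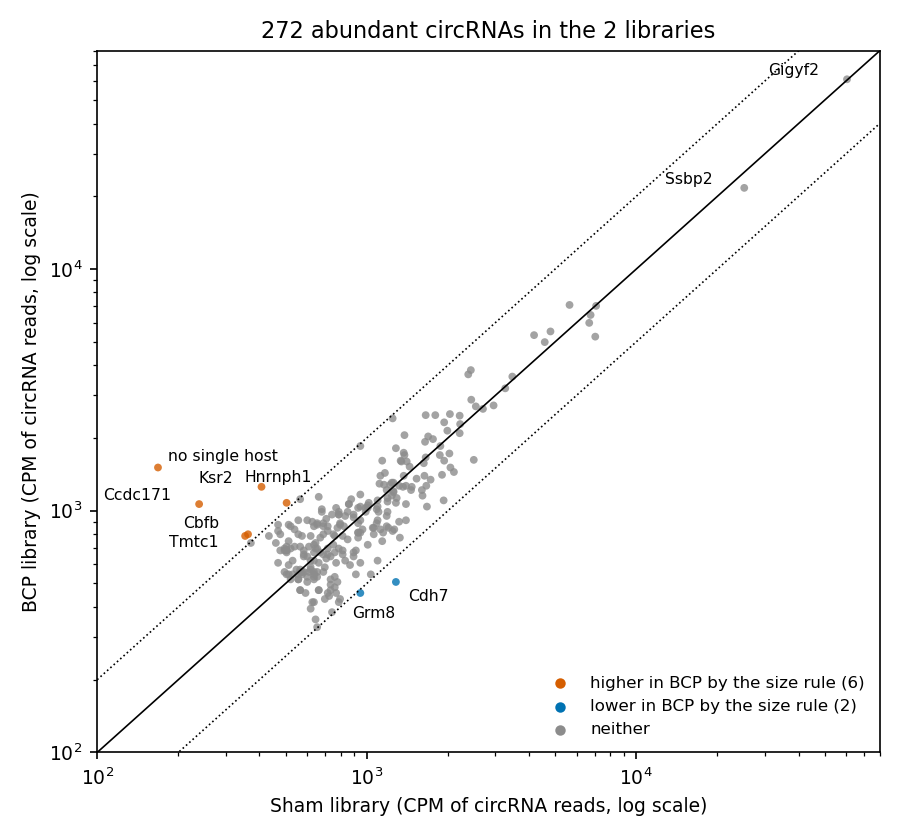
Level of each of the 272 abundant circRNAs in the sham library (x axis, CPM of circRNA reads, log scale) and the BCP library (y axis, same scale), 1 point per circRNA. The solid line marks equal levels and the dotted lines mark 2-fold. Gigyf2 and Ssbp2 stand apart at the top right, and 264 points lie within 2-fold of the line.

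The order of the circRNAs was next compared between the libraries. The 10 with most reads were the same 10 in both. Of the first 50 in one library, 38 were among the first 50 in the other, and the overlap was 81 of the first 100 and 157 of the first 200. In ranks over all listed circRNAs, 241 of the 272 were within the first 272 of sham and 239 within the first 272 of BCP. High ranks in each library are largely built into a choice by the sum of both counts. Across the 272 the Spearman rho between libraries was 0.73 and the Pearson r of log2 counts was 0.86 (points share 2 libraries and were chosen by their sum). Within classes of summed reads, rho was 0.88 over the 24 with 400 or more reads, 0.46 over the 70 with 200 to fewer than 400, and 0.19 over the 178 with fewer than 200. The classes are cut on the summed reads that the rule used, and summed reads span less than 2-fold in both lower classes but run up to 11642 in the top one. The range of levels limits rho, so these values are not compared between classes.

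Among the circRNAs that kept a high place was that of Stk39, the SPAK kinase that phosphorylates cation-chloride cotransporters (chr3:54547246-54566332), at rank 12 in sham and 14 in BCP. The 5 largest falls in rank from sham to BCP were those of Strbp (from 193.5 to 534.5), Rnf14 (198.5 to 477), Ephb1 (162.5 to 431.5), Ncam2 (148 to 372.5) and Cdh7 (68 to 290). Strbp encodes a double-stranded RNA binding protein, Rnf14 a ubiquitin ligase, Ephb1 an ephrin receptor, and Ncam2 and Cdh7 adhesion molecules. The 5 largest rises were those of an unnamed circRNA on chromosome 20 (1033.5 to 48.5), Ccdc171 (713.5 to 89.5), Ksr2 (374.5 to 67), Cbfb (456 to 162.5) and Tmtc1 (442 to 156.5). All 10 of these had fewer than 200 summed reads.

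The ratio of BCP over sham was close to 1 for most. On the log2 scale its median over the 272 was -0.01, against 0.03 over the 3244 circRNAs with at least 10 summed reads and reads in both libraries. It was above 0 in 133 and below 0 in 139 (above 0 in 105 under median-of-ratios and in 101 under TMM scaling), with 264 within 2-fold and 219 within 1.5-fold. The SD of the log2 ratio was 0.50, where counting error alone gives 0.23. It narrowed with reads, from 0.56 in the class below 200 to 0.37 and 0.29 in the classes above, beside counting SDs of 0.26, 0.18 and 0.11. The spread was thus above counting error in each class, and no replicate library was at hand to set it against.

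A difference was called large when the ratio was at least 2-fold and its interval excluded 1. Only 8 of the 272 (2.94%) met this: 6 were higher in BCP and 2 lower. The background was 15.2% of the 3502 circRNAs with at least 10 summed reads (7.82% higher and 7.42% lower), and 8.51% of the 3244 with reads in both libraries (5.86% higher and 2.65% lower). The share among the abundant circRNAs was below both, but neither background is like them. The 3502 include circRNAs listed in 1 library only, which the choice leaves out. Counting error is also wider at fewer reads, with an SD of 0.86 at 10 to 19 reads against 0.23 among the 272. The lower share is therefore not read as stability. The 8 were all in the class below 200 reads, so none of the 94 with 200 or more reads was called. When the counts were scaled by median-of-ratios size factors, which shift log2 ratios by -0.10, the split was 5 higher and 6 lower, and with TMM factors (shift -0.12) it was 5 and 7. Under both, Hnrnph1 was no longer called, and Strbp, Ephb1, Tmem41b and Ncam2 were called lower, joined under TMM by Ica1.

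Of the 6 that were higher in BCP, an unnamed circRNA led (chr20:5347661-5414567). It had 19 sham and 119 BCP reads and was 8.98-fold higher (5.51 to 15.4). No circRNA with a host name overlapped it. Ccdc171, a coiled-coil protein gene (chr5:101695303-101697843), had 27 and 84 reads and was 4.46-fold higher (2.86 to 7.16). Ksr2, a scaffold that holds Raf, MEK and ERK together (chr12:44821090-44825909), had 46 and 99 and was 3.09-fold higher (2.15 to 4.48). In these 3 the lower bound of the interval was itself above 2-fold under scaling to column totals. Ratios were lower under the other scalings (for Ksr2, 2.87-fold under median-of-ratios and 2.85-fold under TMM), so this is stated for column totals only.

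The other 3 were nearer the limit. Cbfb, the DNA-binding partner subunit of RUNX factors (chr19:37135068-37156867), had 40 sham and 62 BCP reads, or 2.22-fold (1.47 to 3.39). Tmtc1, a mannosyltransferase of the endoplasmic reticulum (chr4:182811463-182817396), had 41 and 63, or 2.20-fold (1.46 to 3.35). Hnrnph1, a splicing regulator (chr10:35876034-35876397), had 57 and 85, or 2.14-fold (1.51 to 3.05). Both that were lower encode neuronal surface proteins. Cdh7, a classical cadherin (chr13:31140421-31163102), had 145 and 40 reads and was 2.53-fold lower in BCP (1.77 to 3.68). Grm8, a presynaptic metabotropic glutamate receptor (chr4:55009241-55011408), had 107 and 36 and was 2.07-fold lower (1.41 to 3.11).

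**Figure D2:**
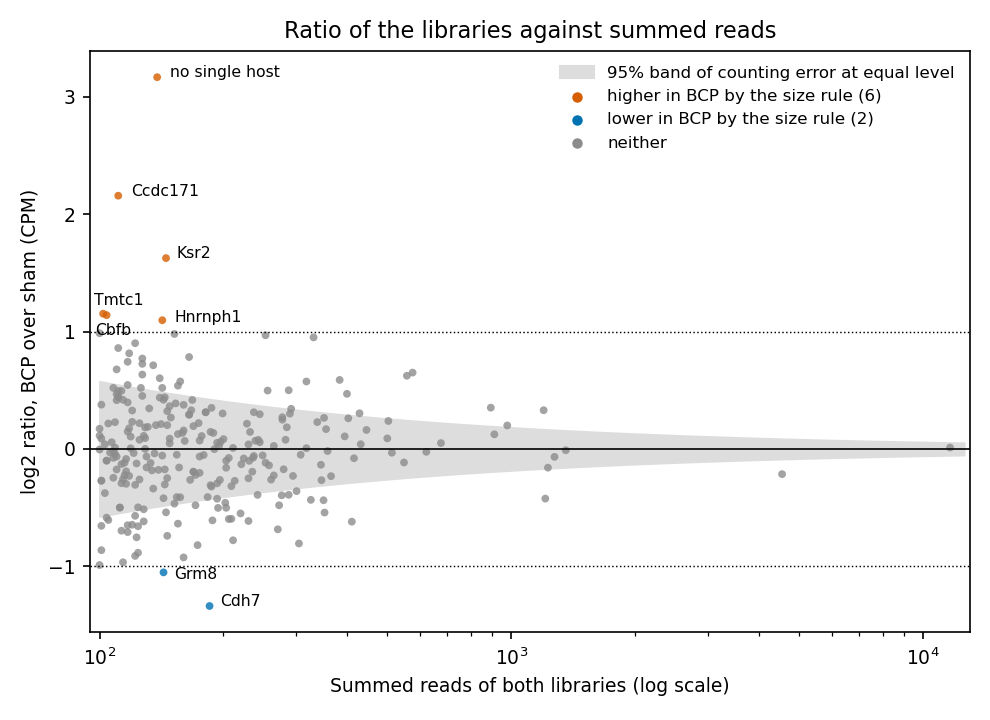
Log2 ratio of BCP over sham CPM (y axis) against summed reads (x axis, log scale) for the 272 abundant circRNAs, 1 point each, with the band that counting error gives at equal levels and dotted lines at 2-fold. The 8 that met the size rule all have fewer than 200 summed reads, and the spread narrows to the right.

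Host functions were described by lists of genes. A host name was assigned to 229 of the 272, from 194 genes, and 43 had no single host name after filtering of the gene field. Transcription factors and co-regulators gave 23 of the 229 (10.04%), against 4.61% of the circRNAs with 10 to 99 reads and a host, a difference that was not tested. The 23 came from 15 genes, several from each of Gtf2i, Ssbp2, Elf2 and Crebrf, and this list, like the others, was written with earlier results of these data known. Beside Ssbp2, Zfp609, Elf2, Crebrf and Gtf2i they included Nfix, a nuclear factor of neural development (chr19:25886356-25886887), with 269 sham and 289 BCP reads and a ratio of 1.54 (1.30 to 1.83). None of the 23 met the size rule. Their log2 ratio was above 0 in 9 and below 0 in 14, with a median of -0.07, beside 0.05 for the list in the 10 to 99 class. Of 34 circRNAs from 21 genes listed as known hosts of conserved circRNAs (14.8% of those with a host, against 5.69% in the 10 to 99 class), none met the rule either. That list was written with the abundant hosts partly in view, so its share is no independent evidence.

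Chromatin regulators gave 7 abundant circRNAs, and none met the size rule. The log2 ratio was above 0 in 7 of 7, with a median of 0.33 (6 of 7 and 0.21 under TMM scaling), whereas 41 of 84 were above 0 in the 10 to 99 class, with a median of -0.03. Chromatin genes outside this list were not all on that side: among 11 circRNAs of further transcription and chromatin genes, 5 were above 0 and 6 below, with a median of -0.07. Zmynd11, a reader of histone methylation, gave 136 sham and 67 BCP reads, a ratio of 0.706 (0.519 to 0.953), and 127 and 66, a ratio of 0.745 (0.545 to 1.01), while the ratios of Ubn2, which is counted with another list below, were 0.923 and 0.747. Chd2, a chromodomain helicase (chr1:134843160-134848903), had 59 sham and 68 BCP reads, a ratio of 1.65 (1.15 to 2.38). Dnmt3a, a DNA methyltransferase (chr6:28235696-28272697), had 77 and 80, a ratio of 1.49 (1.08 to 2.06). With Cdyl these were the 3 of the 7 whose intervals excluded 1. Hdac4, a class IIa histone deacetylase (chr9:99266783-99267021), had 156 and 134, Ash1l, a histone methyltransferase (chr2:188301023-188309036), had 131 and 101, and Chd7, a remodeller of neural crest genes (chr5:21884147-21895382), had 84 and 76.

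Adhesion and guidance genes gave 6, of which 1 met the rule (Cdh7, lower). The log2 ratio was below 0 in 5 of 6 (6 of 6 under TMM), with a median of -0.68, against a median of 0.10 in the 10 to 99 class, where 43 of 73 were above 0. Both circRNAs of Atrnl1, an attractin-like membrane protein, had intervals below 1: 149 sham and 71 BCP reads gave 0.683 (0.508 to 0.912), and 124 and 49 gave 0.567 (0.398 to 0.795). Robo1, the axon guidance receptor of Slit proteins (chr11:10020678-10022991), had 195 and 106, a ratio of 0.779 (0.609 to 0.992). Ncam2 (chr11:20501666-20531756) had 89 and 33, a ratio of 0.532 (0.345 to 0.801). Lrp6, a Wnt co-receptor, had 101 and 76, a ratio of 1.08 (0.790 to 1.47).

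Genes of the synapse and excitability gave 12, of which 1 met the rule (Grm8, lower), with 6 on each side of 0 (4 above and 8 below under median-of-ratios scaling). The widest ratio to the higher side was that of App, the amyloid precursor protein (chr11:24547990-24550752), with 141 sham and 190 BCP reads, 1.93 (1.55 to 2.42). Homer1, a postsynaptic scaffold (chr2:22950023-22964734), had 163 and 120, and Slc8a3, a sodium-calcium exchanger (chr6:105078168-105080571), had 155 and 137. Rims2, which organises the presynaptic active zone, gave 4 circRNAs, the largest with 251 and 180 reads (chr7:78462288-78520474) and a ratio of 1.03 (0.844 to 1.25). The remaining 3 had ratios of 0.674, 0.707 and 0.829.

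Kinases and phosphatases gave 18, with 1 called (Ksr2, higher), and 12 of 18 below 0 at a median of -0.10. Brsk2, a kinase of neuronal polarity, had 182 sham and 91 BCP reads, a ratio of 0.717 (0.551 to 0.927).

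Trafficking and small GTPase regulators gave 18, with 12 above 0 (10 under either other scaling) and none called. Dock4, an exchange factor for Rac, had 107 sham and 146 BCP reads, a ratio of 1.96 (1.51 to 2.53), just short of 2-fold. Tiam1, another Rac exchange factor, had 250 and 165, and Psd3, an exchange factor for Arf6, had 219 and 183. Translation and RNA binding genes gave 11, with 1 called (Hnrnph1, higher), 5 above 0 (2 under either other scaling) and 4 of the 11 from Gigyf2. Tnrc6b, a component of the miRNA silencing complex, had 138 and 101 reads, and Upf2, a nonsense-mediated decay factor, 115 and 85.

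Cytoskeletal genes gave 10, with 6 above 0 (4 under either other scaling) and none called. Ttc3, which the list holds with cytoskeletal genes and which encodes a ubiquitin ligase, had 282 sham and 128 BCP reads, a ratio of 0.651 (0.524 to 0.805). Ttll5, a tubulin glutamylase, had 129 and 59, a ratio of 0.656 (0.473 to 0.899). The ubiquitin and SUMO list gave 9, with 3 above 0 and none called. Its top entry, Ubn2, encodes a ubinuclein of histone deposition and not a ubiquitin enzyme (334 and 215 reads). Klhl8, a cullin adaptor, had 188 and 100, a ratio of 0.763 (0.592 to 0.977).

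Hosts outside these lists were sorted into 5 further classes after their names had been seen. Autophagy, endocytosis and membrane proteins held 17 circRNAs, among them 2 of Uvrag, a beclin partner, with 276 and 227 reads and 225 and 169 reads in sham and BCP. Second messenger and adaptor genes held 16, led by Gnaz, a G protein alpha subunit (ratio 1.12, 0.906 to 1.39), and metabolic enzymes held 14, led by Folh1, which cleaves N-acetylaspartylglutamate (189 and 82, ratio 0.622, 0.474 to 0.810). Transcription and chromatin genes beyond those lists held 11, with Cbfb called, and enzymes of tRNA and RNA held 11. Apart from Cbfb, none in these 5 classes met the size rule. In all, 94 of the 194 hosts were in a list, 62 in a further class only, and 38 in none.

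The 43 circRNAs without a single host name after filtering were 15.8% of the abundant ones, against 12.4% of the 10 to 99 class. They held 14.4% of the abundant circRNAs' sham reads and 14.6% of their BCP reads. Of these, 13 overlapped a circRNA that had a host and 9 shared a splice site with one. After the circRNA near Phf21a, the next had 392 sham and 283 BCP reads (chr1:204959173-204961691) and shared a site with a circRNA of Zranb1, a deubiquitinase gene. One on chromosome 10 (chr10:62623758-62664462) had 275 and 301 reads and a ratio of 1.57 (1.33 to 1.85), and it shared no site with a circRNA that had a host.

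Genomic span, the distance from the first to the last base of a circRNA with its introns, was not used by the choice. Its median was 8225 bp, with quartiles of 2546 and 22149 bp. The shortest came from Mpnd (223 bp), Med13l (238), Hdac4 (239), Fam193a (243) and Cpd (248). The longest were an unnamed one of 181166 bp and one on chromosome 17 of 160558 bp that overlapped Atxn1. Sergef (132723 bp), Rims2 (87648) and Ehbp1 (86743) followed. Thus 16 (5.88%) spanned at most 500 bp, 18 at least 50000 bp, and 3 at least 100000 bp. Spans and summed reads had a Spearman rho of -0.01 across the 272.

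Short circRNAs lay mostly on the higher side in BCP. The log2 ratio had a median of 0.29 and was above 0 in 13 of 16 at spans of at most 500 bp (12 of 16 and 0.17 under TMM). The median was 0.04 with 47 of 87 above 0 from there to 5000 bp, 0.00 with 43 of 90 up to 20000 bp, and -0.09 with 30 of 79 above that (21 of 79 and -0.19 under median-of-ratios, 19 of 79 and -0.20 under TMM). Across the 272, span and log2 ratio had a rho of -0.20, and in the 10 to 99 class it was -0.07, where the shortest had a median of 0.26 (104 of 173 above 0) and the longest -0.07 (405 of 841). Only Hnrnph1, at 364 bp, was called among the shortest. These values are from 1 library per group, and the order was not tested.

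**Figure D3:**
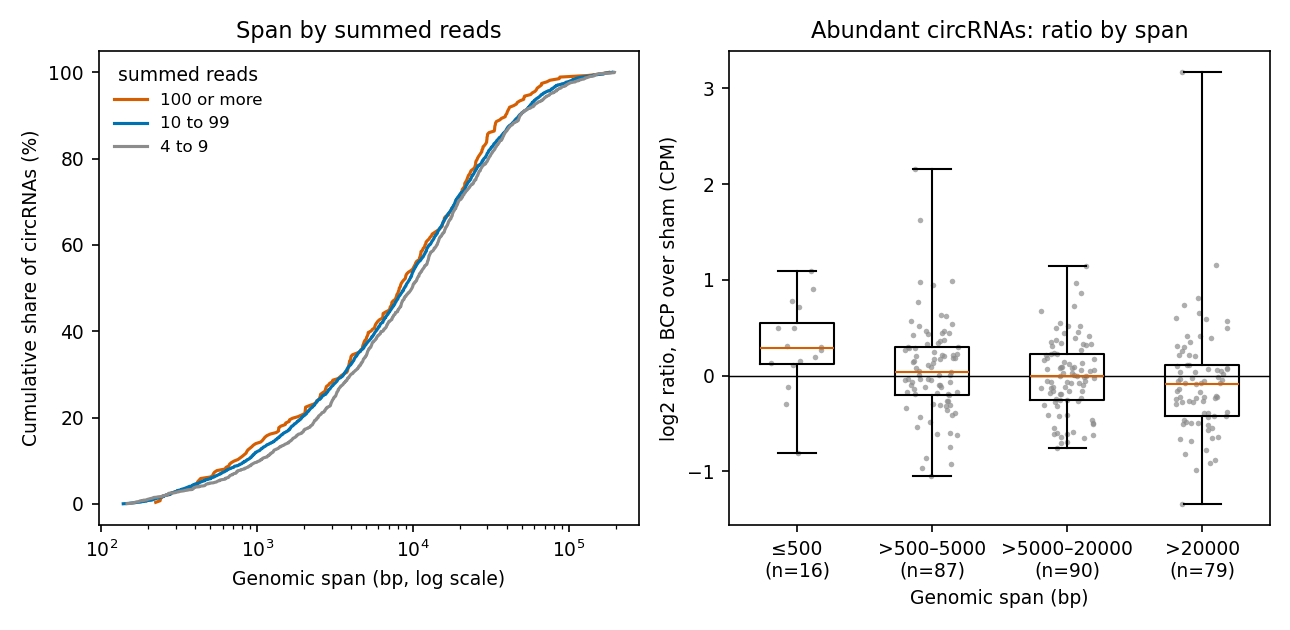
Left, cumulative share of circRNAs (y axis, percent) by genomic span (x axis, bp, log scale) for 3 classes of summed reads, limited to reads in both libraries. Right, log2 ratio of BCP over sham CPM of the abundant circRNAs in 4 span classes, with points for circRNAs, boxes for the median and quartiles, and whiskers to the lowest and highest value. The curves run close together, and the median falls from 0.29 at the shortest spans to -0.09 at the longest.

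The next question was how far an abundant circRNA dominates its host. The 194 hosts listed 1194 circRNAs in all, a median of 4 per gene and up to 48 for Rims2, against a median of 2 for the 3671 other hosts. More circRNAs can be listed where a gene has more reads, so this gap is partly built into the choice. In 27 the abundant circRNA was the only one listed. In the remaining 167, the leading circRNA held a median of 76.5% of the gene's circRNA reads in sham and 79.2% in BCP. Over both libraries the share was above 50% in 138, above 75% in 88 and above 90% in 41. The leader had a median of 5.78 times the reads of the runner-up, at least 10 times in 60 hosts and under 1.5 times in 14. The rule asks for a high count in 1 circRNA, so a high share is partly built into the choice.

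Dominance differed widely between genes. Zfp609 gave 99.4% of its circRNA reads to 1 ring, Tubgcp4, of the gamma-tubulin complex, 98.9%, and Gigyf2 95.6% although it listed 16. At the other end the leader held 21.9% in Rere, a nuclear receptor corepressor with 19 circRNAs, 24.97% in Atrnl1 with 21, 30.2% in Rims2 with 48 and 31.2% in the kinase gene Mark3 with 11. The share was lower where more circRNAs were listed: the median was 89.3% for hosts with 2 to 4 circRNAs, 71.4% with 5 to 9 and 52.5% with 10 or more. Hosts without an abundant circRNA but with at least 100 reads in all had 65.8%, 53.7% and 29.2%. These hosts lack a circRNA of 100 reads seen in both libraries, so the rule itself holds their leader's share down. The gap is thus partly built into the choice.

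**Figure D4:**
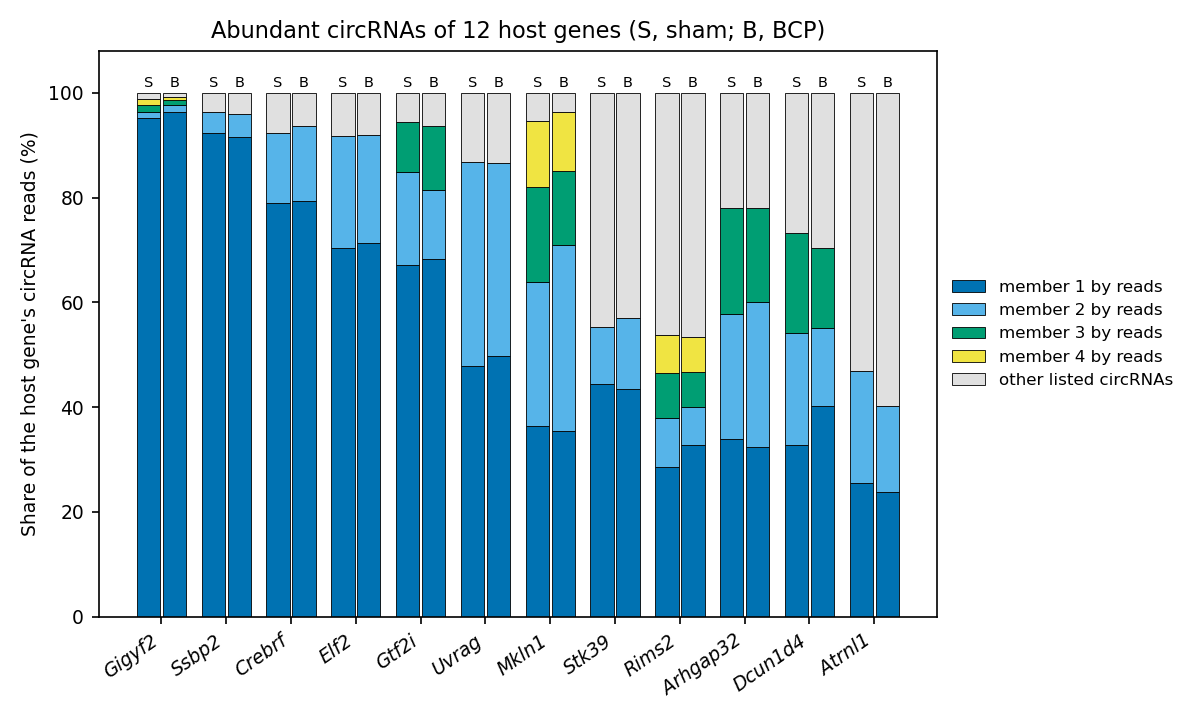
Share of the host gene's circRNA reads (y axis, percent) held by each abundant circRNA of 12 genes with 2 or more of them, in the sham (S) and BCP (B) library, with all other listed circRNAs of the gene in grey. Gigyf2 and Ssbp2 are held by 1 circRNA, while Mkln1, Arhgap32 and Dcun1d4 are divided among 3 or 4.

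The leading circRNA was the same in both libraries in 161 of 167 hosts (96.4%). The hosts were chosen through a circRNA with many summed reads, and the leader had a median of 5.78 times the runner-up's reads. A circRNA that far ahead in the sum is likely to lead in each library. The share is thus largely built into the choice and is not read as stability. The exceptions were Mark3, Ccdc171, Mkln1, Ehbp1, Med13l and Rasa2, in each of which the leader had at most 1.5 times the reads of the runner-up. In Rasa2, a Ras GTPase activator, the pair was tied at 69 reads in sham and stood at 56 and 19 in BCP. In Med13l, a Mediator subunit, the short ring of 238 bp had 151 and 127 reads and the long one of 75675 bp, which shares its end, had 158 and 84.

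The share of the leader was higher in BCP in 84 hosts and lower in 83, with a median difference of 0.29 percentage points. In 9 hosts the intervals of the shares did not overlap, and all 9 had the higher share in BCP. Of these, 8 were Ccdc171 (18.5% and 45.7%), Rasa2 (47.3% and 74.7%), Mapkap1 (58.2% and 82.8%), Elavl3 (62.6% and 83.2%), Slc8a3 (66.2% and 79.2%), Nrd1 (77.9% and 100%), Ank2 (87.1% and 100%) and Gigyf2 (95.2% and 96.2%). The table lists no count below 2 other than 0, and BCP was the shallower library. With sham reads thinned to the BCP total in 1 random draw, 7 hosts were apart, 6 of them higher in BCP. Slc8a3, Ank2 and Gigyf2 were no longer among them. The 1 lower in BCP was then Cpeb3, a regulator of mRNA polyadenylation (47.0% and 26.8%). In the full counts its shares were 39.5% (32.2 to 47.3) in sham and 26.8% (19.9 to 34.7) in BCP, with overlapping intervals.

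**Figure D5:**
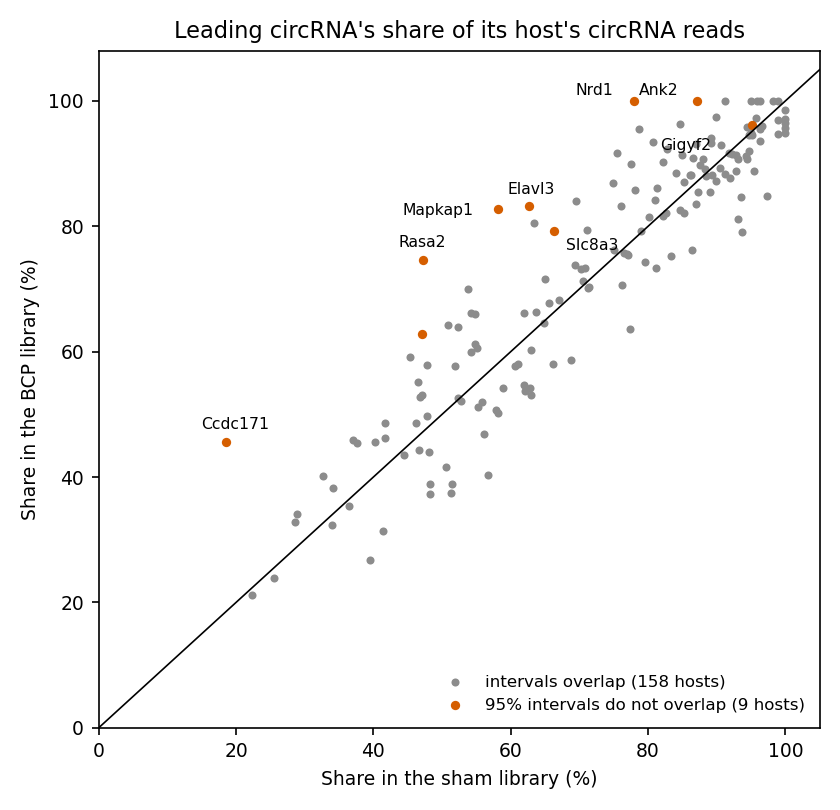
Share of the host gene's circRNA reads held by its leading circRNA in the sham library (x axis, percent) and the BCP library (y axis, percent), 1 point for each of 167 host genes with 2 or more listed circRNAs. The line marks equal shares. The 9 coloured genes, whose 95% intervals do not overlap, all lie above the line.

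The ratio of a leader was also set beside that of its gene's other circRNAs. Of 121 hosts with at least 20 reads outside the leader, 66 had both on the same side of 0 (rho 0.20, across genes), and the medians were 0.03 for the leader and -0.07 for the rest. The gap was widest in Ccdc171. Its leader was 4.46-fold higher in BCP, while the rest of the gene (119 sham and 100 BCP reads) had a ratio of 1.20. In other hosts whose leader met the size rule, the rest mostly lay on the leader's side. The ratios of the rest were 0.433 (0.214 to 0.821) in Cdh7 and 0.287 (0.0976 to 0.700) in Grm8. They were 1.65 (1.09 to 2.49) in Hnrnph1 and 1.39 (0.828 to 2.33) in Cbfb. In Tmtc1 the rest lay on the other side, at 0.956 (0.420 to 2.10).

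In all, 168 hosts gave 1 abundant circRNA, 20 gave 2, 3 gave 3 and 3 gave 4. The 26 with more than 1 held 61 of them. The 3 with 4 were Gigyf2, Rims2 and Mkln1, which encodes the muskelin adaptor of a ubiquitin ligase, and the 3 with 3 were Gtf2i, Arhgap32, a small GTPase regulator, and Dcun1d4, a neddylation factor. Among these 26 genes the log2 ratios were all above 0 in 4, all below 0 in 11 and on both sides in 11, with a median range of 0.33 and a largest of 1.13. The smallest shares of a host's reads were those of the 3 minor Gigyf2 circRNAs (103 and 43, 80 and 73, and 79 and 34 reads), the second of Ssbp2 (124 and 82) and the fourth of Rims2 (64 and 37).

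Splice sites were shared often. A start or end position was shared with another listed circRNA by 220 of the 272 (80.9%), against 70.1% of the 10 to 99 class. Both classes are cut on summed reads, and the difference was not tested. Both sites were shared in 118 and neither in 52. Sites used by 2 or more abundant circRNAs numbered 26 and took in 54 of them. All 4 of Gigyf2 began at position 94463647, a site used by 8 listed circRNAs, and 3 of Rims2 ended at 78520474, a site used by 13. In Mkln1, 3 began at 58714647. The 4 of Mkln1 and the 2 of AABR07060133.1 lay within 328119 bp of chromosome 4 and had 1219 sham and 1039 BCP reads together. Abundant circRNAs that share a site share part of their sequence and are not independent.

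By chromosome, the abundant circRNAs were most numerous on chromosome 1, with 24 of 1192 listed (2.01%), below the 2.35% over all listed circRNAs. The highest shares were on chromosome 17, with 15 of 418 (3.59%), and chromosome 14, with 16 of 457 (3.50%). Chromosome 3 had 10 of 815 (1.23%), and X had 2 of 253 (0.791%), among them that of Zfx, a zinc finger factor (105 sham and 70 BCP reads). Abundance classes also differed in how often a circRNA was seen at all in both libraries. That share was 39.0% of those with 4 to 9 summed reads, 89.4% with 10 to 19, 94.6% with 20 to 49, 96.3% with 50 to 99 and 99.3% with 100 or more. Of those seen in both, 65.6% with 10 to 19 reads lay within 2-fold, against 97.1% with 100 or more. The classes are cut on summed reads, and no count below 2 other than 0 is listed. The counting SD of the log2 ratio was 0.86 with 10 to 19 reads and 0.23 with 100 or more. Both sets of shares are therefore a description of read depth and no measure of stability.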

How the data were processed

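The authors deposited 1 table that gives each circRNA a back-splice count and a CPM value per library (headed TPM, and equal to the count scaled to the column total). Per the submitters' processing notes, CASAVA 1.8, BWA and build rn6 were used. The labels do not name the circRNA caller, its annotation or its read minimum. Deposited counts are 0 or at least 2, and a rare circRNA is listed at 0 more often in BCP, the shallower library.

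Groups came from the sample titles, with 1 library each. Names of small RNA families were dropped from the gene field, as were 15 names spread over more than 3 Mb of a chromosome, and a host was assigned where 1 name remained (10004 of 11599). Of 194 hosts of abundant circRNAs, 190 matched a symbol or synonym in RefSeq's table for GRCr8, used for names alone. Exons, introns and UTRs were not annotated here, and no sequences are printed.

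Ratios used counts scaled to column totals, with no pseudocount and conditional exact (Clopper-Pearson) 95% intervals (scipy 1.17.1). The size rule was 2-fold with an interval excluding 1, among circRNAs with at least 10 summed reads. Size factors from DESeq2 1.42.0 (median-of-ratios) and from edgeR 4.0.16 (TMM), other read limits and folds, thinning, other name filters and other choices of members were alternatives. The size rule was tested on simulated data. These held counting error alone, which is less than the spread found here. Members and lists were chosen with earlier results of these data known. Named were the 10 with most reads, those past the size rule, those at the limit, hosts with 2 or more, the extremes of host share, span and rank change, and up to 5 per list. Stk39's rank, the unnamed circRNAs, Dock4, Chd2, hosts of further classes and hosts with shifted shares were named after their values were seen. A few genes within these rules are left out of the text.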

Additional observations from a re-analysis of the deposited data

How the results depend on the processing

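Of 43 alternative values, 17 stayed close to the reported one and 26 moved, and a change of direction was not among the labels given. With at least 50 summed reads (634 circRNAs), the share of reads was 52.2% in sham and 52.5% in BCP, 28 were called higher and 24 lower, the SD of log2 ratios was 0.63, rho 0.715 and the median span 8503 bp. With at least 200 (94 circRNAs), these were 26.8% and 26.6%, 0 higher and 0 lower, 0.36, 0.762 and 11002 bp. Without the need for reads in both libraries the sham share was 39.7% and 4 were lower, both additions being listed at 0 in BCP. A limit of 1.5-fold called 24 higher and 27 lower. Median-of-ratios factors gave 5 higher and 6 lower, and TMM 5 and 7. The side with more calls thus changed from higher to lower. A pseudocount of 0.5 gave an SD of 0.49. Choosing by sham alone (279 circRNAs, 246 shared) gave a rho of 0.832, choosing by BCP alone (270, 243 shared) 0.784, and leaving out Gigyf2 and Ssbp2, an alternative chosen after seeing the data, 0.719. The leader's median share was 77.0% with names as deposited and 59.2% in hosts with at least 5 circRNAs. Thinning for the leader's share was also added after seeing the data. No paired analysis was possible because each group had 1 library, and for the same reason no replicate could be left out. Counting error limits single ratios below 200 reads, and host names, caller and RNase R digestion could not be varied.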
